A study of Bos taurus with 15 samples.

Results

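The heat shock proteins and DNAJ co-chaperones were followed here in subcutaneous adipose tissue of dairy cows around calving. The members were the genes whose name in all 6 deposited comparisons began with HSPA, HSPB, HSPD, HSPE, HSPH or HSP90, or with DNAJA, DNAJB or DNAJC and a number. This gave 63 of 13896 genes, 23 heat shock proteins and 40 DNAJ co-chaperones. RNA of 15 biopsies of dewlap fat of primiparous Prim Holstein cows was sequenced, 3 libraries in each of 5 groups. The groups were cows 1 month before calving, before any diet began, and cows on a low energy diet (LE) or a high energy diet (HE), each sampled 1 and 16 weeks after calving (1 and 16 wkpp). The diets ran from 1 month before calving. For sequencing the study chose the cows at the extremes of negative energy balance at 1 wkpp. The paper names these groups severe and moderate. In its list of libraries severe stands in the place of LE and moderate in the place of HE. Diet and energy balance therefore cannot be told apart here. The labels do not tell which library before calving came from a cow later fed which diet. All cows were fasted, sedated with xylazine and given lidocaine before the biopsy.

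Heat shock proteins are chaperones, which hold unfolded proteins and help them to reach or regain their fold. The HSPA (Hsp70) proteins bind short stretches of unfolded chain in a cycle driven by ATP. DNAJ (Hsp40) proteins bring them clients and start ATP hydrolysis, and HSPH proteins and their relative HSPA4 exchange the nucleotide. HSP90 proteins act later, on proteins near their final shape such as kinases and hormone receptors. Small heat shock proteins (HSPB) hold unfolded proteins without ATP, and HSPD1 with HSPE1 forms the folding chamber of mitochondria. Cytosolic, endoplasmic reticulum (ER) and mitochondrial forms exist of most of these machines. Heat and other insults raise the inducible forms through the factor HSF1, while the constitutive forms are made in nearly all cells. A fat cell makes large amounts of secreted and lipid-handling proteins, which pass through the ER.

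Counts of reads on exons and on the whole gene (exons and introns together) were examined side by side. Exon reads per library numbered 7562700 to 14135424 in the 9 libraries before calving and of LE cows. They numbered 2010723 to 7364573 in the 6 HE libraries. Per the paper, total reads overlapped between groups, but a smaller share mapped uniquely in its moderate group, listed in the place of HE. Diet, energy balance and these differences between libraries cannot be told apart in a comparison of LE with HE. Adipocyte genes were abundant in all groups. The summed normalised count of 6 adipocyte markers ran from 41520 to 86560 before calving and in LE, and from 9438 to 56090 in HE. The marker lists of other cells also moved with the groups. The 3 fibroblast markers whose reads could be worked out summed to 33810 to 75860 before calving and in LE against 6481 to 22050 in HE. The 6 smooth muscle markers summed to 4872 to 14950 in LE at 16 wkpp against 24590 to 63150 in HE at 16 wkpp. The 4 macrophage markers summed to 9827 to 13170 in LE at 16 wkpp against 1893 to 2129 in HE at 16 wkpp. The 10 skeletal muscle markers summed to 649.5 to 2550 in LE and 3010 to 10250 in HE, with 1532 to 6451 before calving, which overlaps both. Most of that sum was DES (group means of 1298 to 4836) and TNNT3 (205.3 to 2828), and the others had group means of at most 33.68. The 6 endothelial markers, 19680 to 37520 before calving and in LE and 24330 to 64380 in HE, overlapped. The 6 lymphocyte markers lay between 61.23 and 227.6 in every group, and the 5 erythrocyte markers between 12.2 and 356.1. The 6 keratinocyte markers reached 247.5 to 838.5 before calving and 2.61 to 11.9 in LE, with 0 to 278.2 in HE, and the 3 mammary markers at most 16.4. The part of these cells in the results below was not tested. In whole tissue, fewer cells of a type and less RNA per cell cannot be told apart.

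The members were a small and broadly steady part of the RNA. They took 0.62 to 0.75% of the exon reads in the 9 libraries before calving and of LE cows and 0.61 to 0.69% in HE at 16 wkpp. In the 3 libraries of HE at 1 wkpp they took 0.49, 0.63 and 0.45%. Of the 63 members, 55 had exon reads in every library. The other 8 had a mean of fewer than 10 exon reads. DNAJC22, DNAJB3, DNAJB7, DNAJC5B, DNAJC5G and HSPB9 had 1 to 18 exon reads in all 15 libraries together, HSPB3 had 33 and DNAJB13 had 59. HSPA1L, the testis-rich relative of HSPA1A, was near that limit with a mean normalised exon count of 9.86. Counts are not divided by gene length here, so the order of genes below is an order of reads and not of transcripts.

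By reads averaged over all libraries, the cytosolic HSP90 pair led, though HSPA8 was above HSP90AA1 before calving and in HE at 1 wkpp. HSP90AB1, the constitutive cytosolic HSP90, had a mean normalised exon count of 10792 over the 15 libraries, and HSP90AA1, its more inducible twin, 3812. They were followed by HSPA8 (3381), the constitutive cytosolic Hsp70, HSP90B1 (3121), the HSP90 of the ER known as GRP94, and HSPA1A (2463), the stress-inducible Hsp70. HSPB1 (2315), the most widely made small heat shock protein, came before DNAJC13 (2164), a co-chaperone of endosomes and the leading DNAJ, and DNAJC14 (867) was the next of the DNAJC class. DNAJC14 was steady in value, with log2 differences in exon counts from -0.18 to 0.09 over the 6 comparisons. HSPA5 (1676), the ER Hsp70 known as BiP, and HSPA9 (1608), the mitochondrial Hsp70 known as mortalin, were close to each other. The leading members of the smaller classes were HSPE1 (368) and HSPD1 (157) of the mitochondrial chamber, HSPH1 (413), DNAJA4 (308) and DNAJA3 (260), and DNAJB4 (649) and DNAJB6 (566). HSPA1A has a near-identical neighbour in mammals, and HSPA8, HSP90AB1, HSP90AA1, HSPD1 and HSPE1 have processed copies elsewhere, so their reads may be shared with those copies. In the RefSeq annotation, where all 63 members matched by symbol, 19 overlap another gene, DNAJC17, DNAJB2, HSPA9 and HSPA8 among them, and their counts may include reads of that gene.

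A member was called changed where limma with voom weights gave a Benjamini-Hochberg adjusted p under 0.01 in exon and in whole gene counts with the same sign. By this rule, 0 members were called in any of the 6 comparisons. Between before calving and HE at 1 wkpp 0 of 55 tested were called, where the rule called 1.75% of all genes. Between LE and HE at 16 wkpp it was 0 of 54, against 3.73% of all genes. For the remaining comparisons all genes gave 0.0378% (before calving against LE at 1 wkpp), 0.00% (HE at 1 against 16 wkpp), 0.00% (LE at 1 against 16 wkpp) and 0.00% (LE against HE at 1 wkpp). The counts at an unadjusted p under 0.05 and the sizes of the differences are given with each comparison, and a difference that was not called is given as a value and its interval.

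**Figure D1:**
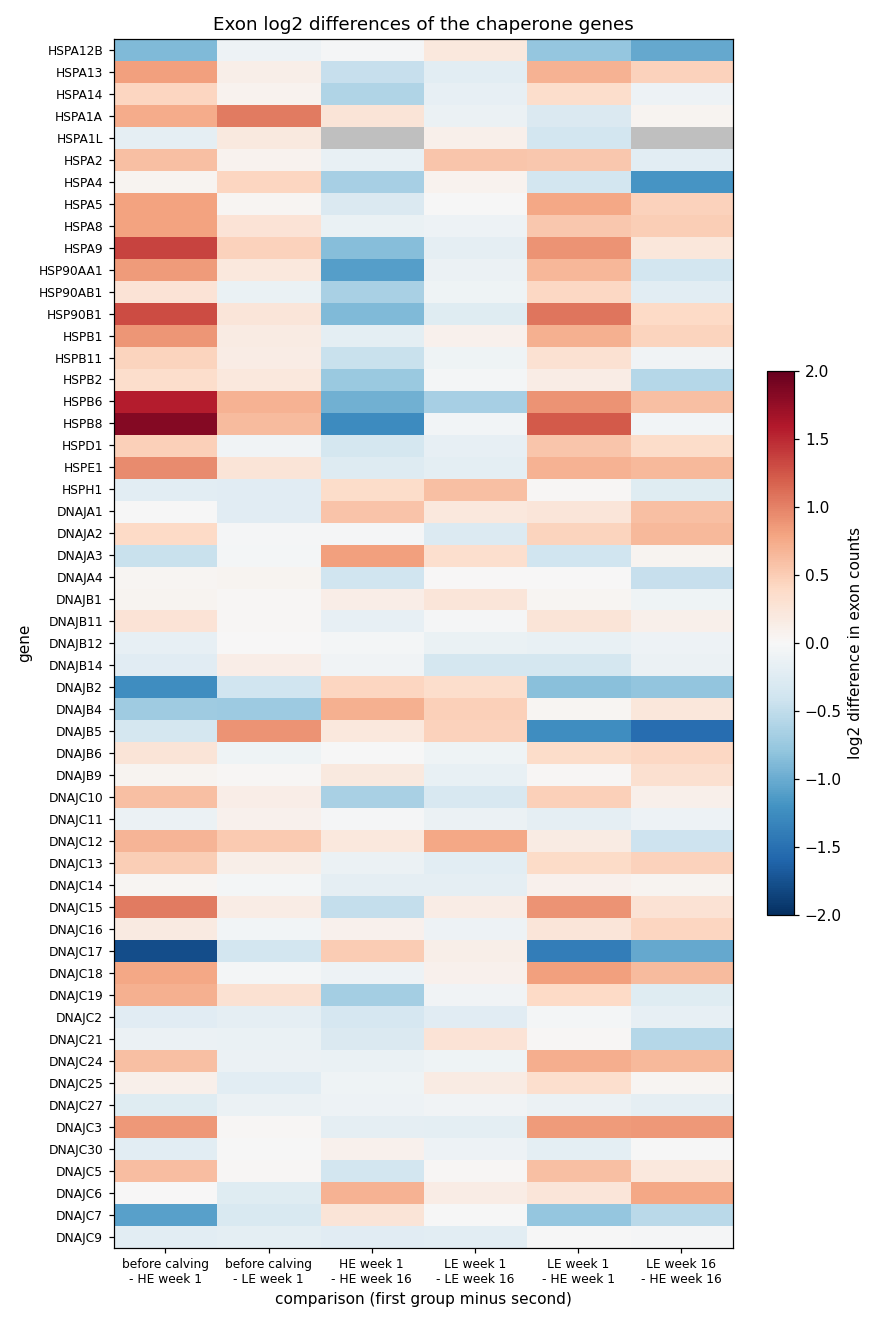
Log2 differences in exon counts of the 55 members tested (rows, by class) in the 6 comparisons (columns, first group minus second), with red for higher in the first group, blue for lower and grey for not tested. The deepest red in the first column is HSPB8 (1.84) and the deepest blue DNAJC17 (-1.77), and the columns of LE and of before calving against LE are the palest.

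The first question was how the chaperones moved from 1 month before calving to 1 wkpp in HE cows. Of 55 members tested, 37 had more exon counts before calving and 18 fewer, with a median log2 difference of 0.27 against 0.04 over all genes. At an unadjusted p under 0.05 the exon counts of 19 members differed, 34.5% of those tested, against 42.5% of all genes. In 18 the 3 normalised exon counts of a group lay wholly above or below those of the other, 32.7% of members against 47.0% of all genes. The members thus differed in no larger share than other genes.

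The largest difference was in HSPB8, a small heat shock protein that works with the co-chaperone BAG3 in clearing misfolded protein. Its normalised exon counts were 709, 810 and 606 before calving and 121, 284 and 323 in HE at 1 wkpp. The groups did not overlap, and the log2 difference was 1.84 ± 0.34 (SE, n = 3 and 3), or 3.58-fold, with a limma adjusted p of 0.00327 in exon counts and 0.0323 in whole gene counts. The deepest HE library, at 121, set much of the size: without it the difference was 1.22. After thinning of all libraries to the smallest it was 1.62. HSPB6, a small heat shock protein abundant in muscle, was at 268, 313 and 172 before calving and 96.0, 51.8 and 92.7 in HE at 1 wkpp. All 3 HE libraries were lower, by a log2 difference of 1.57 ± 0.39 with a limma adjusted p of 0.0124 in exon counts and 0.264 in whole gene counts. HSPB1 differed by 0.88 with overlapping groups and a limma adjusted p of 0.101. Smooth muscle, a tissue rich in small heat shock proteins, had marker sums of 10350 to 43870 before calving and 18440 to 24800 in HE at 1 wkpp, which overlap. Its markers went both ways. Means of MYH11, CNN1, TAGLN and ACTA2 were lower in HE at 1 wkpp, and those of SMTN and LMOD1 higher. The part of smooth muscle in these differences was not tested.

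HSPA9, the mitochondrial Hsp70, had normalised exon counts of 2325, 2389 and 1948 before calving and 1044, 980 and 590 in HE at 1 wkpp. All 3 HE libraries were below every library before calving, with a log2 difference of 1.35 ± 0.25 and limma adjusted p values of 0.00304 in exon and 0.0514 in whole gene counts. Its partners of the mitochondrial chamber were smaller in difference, HSPE1 at 0.94 ± 0.24 and HSPD1 at 0.48 ± 0.28, the latter with overlapping groups. HSP90AA1 counts were 4352, 4696 and 3601 against 2154, 2270 and 2489. The groups did not overlap, at a log2 difference of 0.86 ± 0.20 with limma adjusted p values of 0.00894 in exon and 0.0947 in whole gene counts. HSP90AB1 overlapped between the groups, at 0.27 (95% interval -0.23 to 0.77).

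In the ER, HSP90B1 counts were 4248, 3982 and 3240 before calving and 1381, 2718 and 953 in HE at 1 wkpp. The 3 HE libraries were lower but far apart, and the level before calving was 2.46-fold higher, with a limma adjusted p of 0.0163 in exon counts. In whole gene counts the groups overlapped, at a log2 difference of 1.18 ± 0.40 with a limma adjusted p of 0.115. HSPA5 was at 1911, 2252 and 1584 against 900, 2543 and 530. The middle HE library in depth exceeded every library before calving, so the groups overlapped, at 0.81 (95% interval -0.21 to 1.82). HSPA8 showed the same library order in HE, 2328, 4377 and 1369, with a difference of 0.80 (95% interval -0.03 to 1.64). DNAJC3, the ER co-chaperone P58IPK, was at 769, 865 and 650 against 485, 475 and 267, with no overlap and a log2 difference of 0.86 ± 0.26.

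DNAJC17, a co-chaperone with an RNA-binding domain, had exon counts of 85.0, 102 and 131 before calving and 278, 379 and 460 in HE at 1 wkpp, the largest difference in this direction. The log2 difference was -1.77 ± 0.28 with a limma adjusted p of 0.00139 in exon counts, but -0.74 ± 0.18 with 0.0458 in whole gene counts. DNAJB2, a co-chaperone that sends clients to the proteasome, was at 244, 230 and 290 against 502, 639 and 694. The groups were apart, at -1.25 ± 0.22 with limma adjusted p values of 0.00231 in exon and 0.0226 in whole gene counts. DNAJC7, which binds both Hsp70 and HSP90, was at -1.08 ± 0.19 in exon counts but at -0.30 ± 0.20 in whole gene counts, the latter with overlapping groups. HSPA12B, a distant Hsp70 relative made mainly by endothelium, was at -0.88 ± 0.21 with a limma adjusted p of 0.0115 in exon counts. The endothelial markers summed to 19680 to 24530 before calving and 30190 to 64380 in HE at 1 wkpp. In LE at 1 wkpp they summed to 30400 to 37520, where HSPA12B had a mean of 698.5 against 651.6 before calving. The part of endothelium was not tested. DNAJC15, a mitochondrial inner membrane co-chaperone, stood at 1.03 ± 0.38 in exon counts and -0.18 ± 0.24 in whole gene counts, so its direction depended on whether introns were counted.

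Some calls rested on the setting. With adjusted p under 0.05 in place of 0.01, 3 members passed in exon and whole gene counts, HSPB8 higher and DNAJB2 and DNAJC17 lower before calving, which is 5.45% of members against 10.8% of all genes. A weight per library, or a fit of all 15 libraries, gave 4 calls at 0.01: HSPB8 and HSPA9 higher and DNAJB2 and DNAJC17 lower before calving. The same settings called 14.8% and 10.5% of all genes, more than the share of members.

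**Figure D2:**
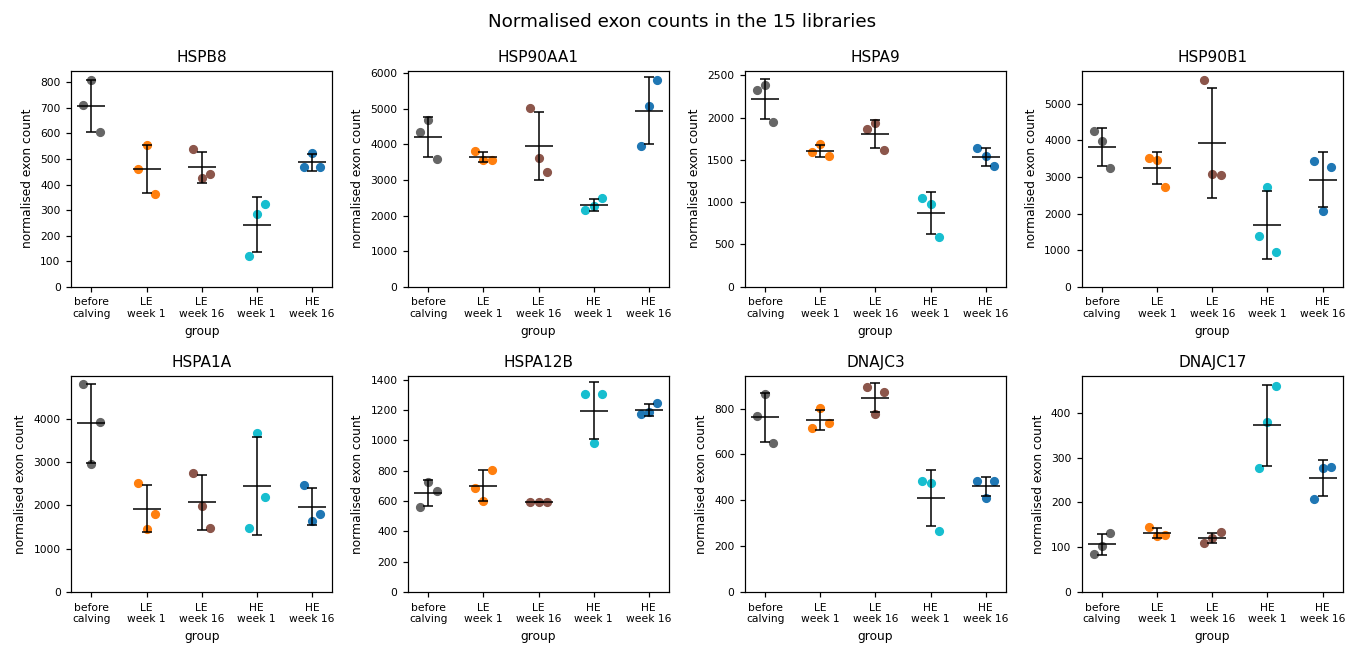
Normalised exon counts (y axis, from 0) of 8 members in the 15 libraries by group (x axis); points are libraries, the horizontal mark is the mean of 3 and the bar its SD. HSPB8, HSP90AA1 and HSPA9 were lowest in HE at 1 wkpp, while HSPA12B and DNAJC17 were higher and DNAJC3 lower in all 6 HE libraries than in the other 9, and HSPA1A was highest on average before calving.

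The same comparison was then made from 1 month before calving to 1 wkpp in LE cows. Here 32 members had more exon counts before calving and 23 fewer, with a median of 0.03 against -0.02 over all genes. At an unadjusted p under 0.05 there were 3 members, 5.45% of 55, against 14.6% of all genes: HSPA1A, HSPB8 and HSPA9. Groups were apart in 5 members, 9.09%, against 19.8% of all genes. HSPA1A, the inducible Hsp70, was at 4797, 2966 and 3933 before calving and 2523, 1459 and 1797 in LE at 1 wkpp. The LE libraries were lower than all libraries before calving, by a log2 difference of 1.03 ± 0.26 with limma adjusted p values of 0.0959 in exon and 0.175 in whole gene counts. Against HE at 1 wkpp, where it was at 1469, 3670 and 2204, the same gene overlapped with the level before calving. HSPB8 was at 461, 554 and 364 in LE at 1 wkpp, a log2 difference of 0.64 ± 0.20 from before calving, and HSPA9 at 1593, 1687 and 1542, a difference of 0.46 ± 0.15. Their limma adjusted p values were 0.177 and 0.202. Both comparisons with 1 wkpp use the same 3 libraries before calving, so they are not independent of each other. DNAJB5, a nuclear and cytosolic Hsp40, was at 0.91 (95% interval from under 0 to 1.81) and HSPB6 at 0.70 (-0.12 to 1.51), while DNAJB4 was at -0.72 (-1.47 to 0.02), DNAJB2 at -0.40 (-0.91 to 0.12) and DNAJC17 at -0.37 (-0.88 to 0.14). Leaving out 1 library moved each of these 5 by over 1.5 times. DNAJB5 was at 0.56 without before_calving replicate 1. Without LE_week1 replicate 3 HSPB6 was at 0.39, without LE_week1 replicate 2 DNAJB4 was at -1.13 and DNAJB2 at -0.61, and without before_calving replicate 1 DNAJC17 was at -0.22. The abundant HSP90AB1 and HSPA8 had intervals of -0.64 to 0.36 and -0.21 to 0.75.

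From 1 to 16 wkpp most members had fewer exon counts at 1 wkpp in HE and in LE cows, and a test of the difference between them, given below, called none. In HE cows 39 of 54 members had fewer exon counts at 1 than at 16 wkpp, with a median log2 difference of -0.15 against 0.01 over all genes. The unadjusted p was under 0.05 in 9 members, 16.7%, against 13.7% of all genes, and the groups were apart in 12, 22.2%, against 20.1%. HSP90AA1 had the smallest p. It was at 2154, 2270 and 2489 in HE at 1 wkpp and 3959, 5072 and 5813 at 16 wkpp, a log2 difference of -1.09 ± 0.22 with an unadjusted p of 0.00066 in the limma fit and an adjusted p of 0.224. HSPB8 was at 121, 284 and 323 against 470, 525 and 467, also without overlap, with a difference of -1.26 ± 0.35 and a limma adjusted p of 0.25. Without the library at 121 that difference was -0.68. HSPA9 was at 1044, 980 and 590 against 1640, 1541 and 1427, at -0.85 ± 0.26, and HSPB6 was at -0.97 ± 0.31. The 6 smooth muscle markers, 0 of them called, had a median log2 difference of the same sign, -1.115, with sums of 18440 to 24800 at 1 wkpp and 24590 to 63150 at 16 wkpp, which just overlap, and their part in these differences was not tested. The HSP90 forms HSP90AB1 and HSP90B1 had differences of -0.65 ± 0.28 and -0.89 ± 0.39 with overlapping groups. In the other direction DNAJA3, a mitochondrial co-chaperone, was at 351, 276 and 453 at 1 wkpp and 189, 160 and 263 at 16 wkpp, at 0.82 ± 0.27 with a limma adjusted p of 0.28. DNAJB4 (0.72 ± 0.56) and DNAJC6 (0.70 ± 0.74) varied as much between libraries of a group as between the groups. With 1 library left out DNAJB4 ran from 0.24 to 1.29 and DNAJC6 from 0.17 to 1.76.

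In LE cows from 1 to 16 wkpp, 21 members had more and 34 fewer exon counts at 1 wkpp, with a median of -0.08 against -0.01 over all genes. The unadjusted p was under 0.05 in 2 members, 3.64%, against 7.18% of all genes: HSPA2 and DNAJC12. Groups were apart in 3 members, 5.45%, against 12.2%. HSPA2, an Hsp70 best known in male germ cells, was at 1013, 1132 and 684 at 1 wkpp and 694, 594 and 570 at 16 wkpp. These overlapped at a single library, and the log2 difference was 0.56 ± 0.21 with a limma adjusted p of 0.682. DNAJC12, a co-chaperone of aromatic amino acid hydroxylases, was at 36.9 to 58.6 against 21.9 to 29.0, apart by 0.77 ± 0.33 in exon counts, with overlapping groups at 0.29 ± 0.31 in whole gene counts. HSPH1 was at 0.60 ± 0.30, HSPB6 at -0.67 ± 0.30, DNAJB14 at -0.35 ± 0.31 and DNAJC10, an ER disulphide reductase, at -0.32 ± 0.26, and each of these 4 moved by over 1.5 times when 1 library was left out. HSPB6 ran from -1.02 without LE_week1 replicate 2 to -0.36 without LE_week1 replicate 3, and DNAJC10 was at -0.03 ± 0.21 in whole gene counts. HSP90AA1 had a difference of -0.11 (95% interval -0.56 to 0.33) and HSPB8 of -0.06 (-0.50 to 0.38).

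Whether the change from 1 to 16 wkpp differed between the diets was tested directly in the 12 libraries after calving. In simulated data this test found 10% of 2-fold and 46% of 3-fold changes, so a count of 0 says little about changes of such sizes. No member was called (0 of 55, against 0.00% of all genes), and 4 members had an unadjusted p under 0.05 in exon counts, 7.27%, against 4.93% of all genes. These were HSP90AA1, HSPB8, HSPA2 and HSPA9, each with the difference between 1 and 16 wkpp more positive in LE than in HE. The difference of the log2 differences was 1.01 ± 0.28 for HSP90AA1 and, as a fold, 2.47 for HSPB8, both with a limma adjusted p of 0.975. Without the deepest library of HE at 1 wkpp the HSPB8 value was 0.65 on the log2 scale. For HSPA9 the log2 value was 0.66 ± 0.29 and for HSPA2 0.75 ± 0.32. The smooth muscle markers had a median of 1.35 in the same test. For the main ER and cytosolic Hsp70s the intervals were wide, -1.04 to 1.67 for HSPA5 and -0.98 to 1.07 for HSPA8.

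At 1 wkpp LE and HE cows were set against each other. There were 39 members with more exon counts in LE and 16 with fewer, with a median of 0.25 against 0.05 over all genes. The unadjusted p was under 0.05 in 13 members, 23.6%, against 32.0% of all genes, and groups were apart in 18, 32.7%, against 39.5%. This comparison shares the HE libraries with 2 of the comparisons above. Among members higher in LE, HSPB8 had the largest difference, at 461, 554 and 364 in LE against 121, 284 and 323 in HE, a log2 difference of 1.22 ± 0.37 with limma adjusted p values of 0.0521 in exon and 0.12 in whole gene counts. Without the HE library at 121 it was 0.59. HSP90B1 was at 3512, 3474 and 2738 in LE, above all HE libraries, with a log2 difference of 1.06 ± 0.36 in exon counts, while in whole gene counts the groups overlapped at 1.04 ± 0.39 (limma adjusted p 0.2). HSPA9 at 0.89 ± 0.25 and HSP90AA1 at 0.66 ± 0.18 both had a limma adjusted p of 0.04 in exon counts and above 0.05 in whole gene counts. DNAJC18, a membrane-anchored co-chaperone of the ER, was at 849, 853 and 742 in LE and 428, 467 and 505 in HE, apart by 0.82 ± 0.20 with a limma adjusted p of 0.0255 in exon counts and 0.0994 in whole gene counts. DNAJC15 was at 0.91 ± 0.36 in exon counts and at -0.03 ± 0.22 in whole gene counts. Lower in LE were DNAJC17 at -1.39 ± 0.25 (limma adjusted p 0.0106 in exon counts), DNAJB5 at -1.24 ± 0.43 and DNAJB2 at -0.84 ± 0.25. In whole gene counts DNAJC17 was at -0.48 ± 0.18 with a limma adjusted p of 0.206.

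At 16 wkpp the members were evenly split, 28 with more exon counts in LE and 26 with fewer, with a median of 0.04 against 0.02 over all genes. The unadjusted p was under 0.05 in 16 members, 29.6%, against 37.8% of all genes, and groups were apart in 22, 40.7%, against 43.8%. HSPA12B had the smallest p. It was at 593, 591 and 591 in LE and 1172, 1186 and 1245 in HE, a log2 difference of -1.02 ± 0.14 with limma adjusted p values of 0.00152 in exon and 0.0117 in whole gene counts. The endothelial markers summed to 22870 to 26320 in LE at 16 wkpp and 24330 to 34970 in HE at 16 wkpp, which overlap. DNAJB5 had the largest difference, at 26.4, 23.8 and 18.6 in LE against 59.8, 77.2 and 70.5 in HE. Its log2 difference was -1.53 ± 0.31 in exon and -1.72 ± 0.30 in whole gene counts, with limma adjusted p values of 0.00914 and 0.0102, the latter just outside the threshold. HSPA4, an exchange factor of Hsp70, was at 1099, 933 and 884 in LE and 1593, 2000 and 3084 in HE, at -1.17 ± 0.24 with limma adjusted p values of 0.00928 and 0.0532. Against the 1 HE library that remains without the 2 with fewest reads, which were the highest, the HSPA4 difference was -0.73, a value with no spread of its own in HE.

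DNAJC3 was the leading member in the other direction, at 894, 775 and 871 in LE and 485, 412 and 486 in HE at 16 wkpp. The groups were far apart, at 0.87 ± 0.16 with limma adjusted p values of 0.00596 in exon and 0.0316 in whole gene counts. DNAJA2, a cytosolic co-chaperone of HSPA8, was at 318, 298 and 268 against 183, 224 and 157, at 0.66 ± 0.19, and DNAJC6, the clathrin-uncoating auxilin, at 0.77 ± 0.46 with overlapping groups. The DNAJC6 value was 0.45 without HE_week16 replicate 3. HSPB8 and HSP90AA1, at 1.22 and 0.66 in LE against HE at 1 wkpp, were at -0.06 (95% interval -0.44 to 0.31) and -0.36 (-0.88 to 0.15) at 16 wkpp. With adjusted p under 0.05 in exon and whole gene counts, 4 members passed, 7.41% against 13.1% of all genes: DNAJC3 higher and HSPA12B, DNAJB5 and DNAJB2 lower in LE. Macrophage, fibroblast and smooth muscle marker sums, given above, differed in the same libraries. So did the skeletal muscle sum, which was mostly DES and TNNT3.

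**Figure D3:**
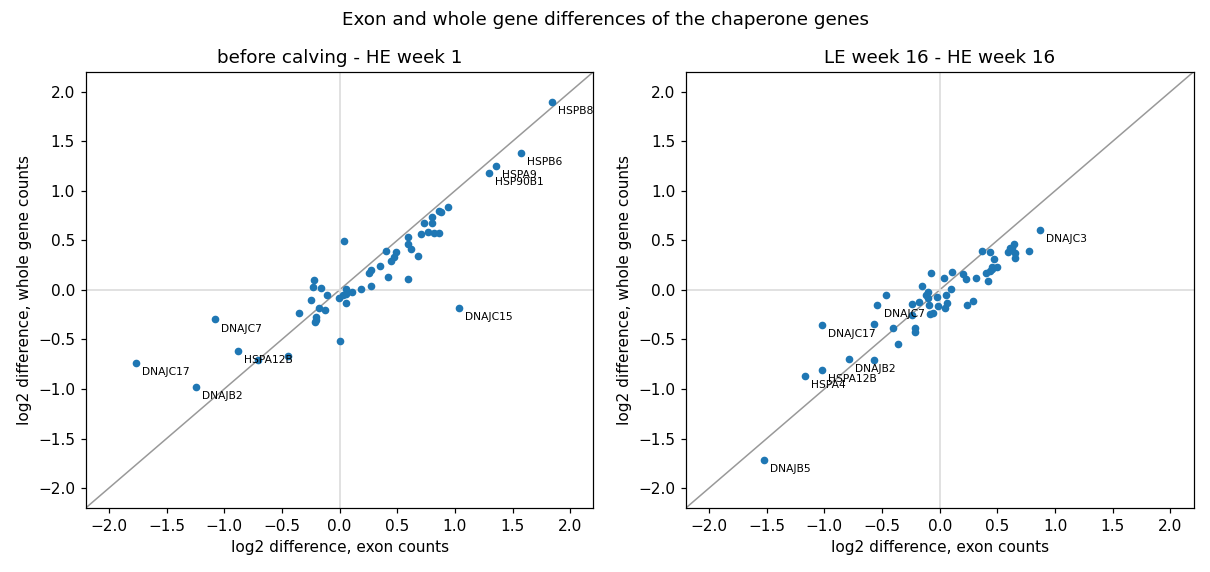
Log2 differences of the members in exon counts (x axis) and whole gene counts (y axis) in 2 comparisons, before calving minus HE at 1 wkpp and LE minus HE at 16 wkpp; the grey diagonal marks equal differences. Most members lie near the diagonal, while DNAJC17 and DNAJC7 lie above it with the larger size in exon counts, and DNAJC15 before calving against HE at 1 wkpp lies at 1.03 in exon and -0.18 in whole gene counts.

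Across all times, 5 members had all 6 HE libraries on the same side of the other 9 in normalised exon counts, 9.09% of 55, where 15.6% of all genes did so. DNAJC17 was at 208.8 to 460.0 in HE and 85.0 to 145.6 in the others, DNAJC7 at 509.5 to 682.6 and 292.1 to 443.5, and HSPA12B at 979.6 to 1304 and 558.8 to 806.4. DNAJC3 was at 267.1 to 485.6 in HE and 649.8 to 894.5 in the others, and DNAJC18 at 415.6 to 550.7 and 688.2 to 939.6. In whole gene counts HSPA12B and DNAJC3 were still apart, at 1270 to 1920 against 919.1 to 1174 and at 748.2 to 1099 against 1256 to 1574. DNAJC17 was not, at 464.1 to 701.0 against 353.1 to 521.1, nor were DNAJC7 and DNAJC18. The HE libraries had the fewest exon reads of the series and, as given below, the largest shares of spike-in reads. This separation cannot be told apart from such differences between the libraries.

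The share of a gene's reads that lay on exons showed where exon and whole gene counts parted. Over all genes it was 47.2 to 60.0% in the 6 HE libraries and 39.2 to 53.0% in the other 9, which overlap. In 5 of 55 members it was higher in every HE library than in any other, 9.09% against 11.9% of all genes, and in 0 members it was lower in every HE library, against 0.379% of all genes. For DNAJC17 the share was 42.9 to 66.0% in HE and 20.6 to 33.4% in the others. For DNAJC7 it was 48.9 to 70.2% and 30.2 to 40.3%, and for DNAJA4, an Hsp40, 52.6 to 77.8% and 37.4 to 50.0%. DNAJB2 was at 71.3 to 87.4% against 59.5 to 68.4%, and HSPA12B at 69.8 to 84.2% against 57.9 to 67.5%.

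**Figure D4:**
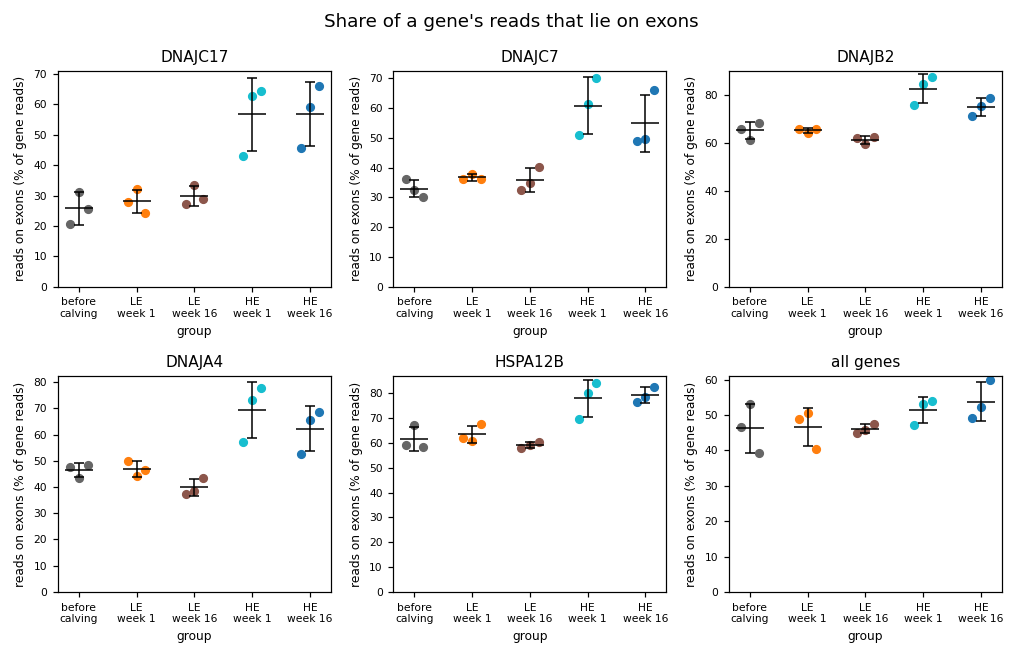
Share of reads on exons (y axis, % of the gene's exon and intron reads, from 0) in the 15 libraries by group (x axis) for 5 members and for all genes together; points are libraries, marks and bars the mean and SD of 3. In the 5 members every HE library lies above the other 9, for DNAJC17 at 42.9 to 66.0% against 20.6 to 33.4%, while over all genes the groups overlap.

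Related genes outside the name pattern were counted by the same rule, for lists chosen with earlier results known. Among the heat shock factors and regulators, 4 of 5 were in the tables and 1 was called, HSF4, a factor of the HSF family best known in the lens, lower before calving than in HE at 1 wkpp by 2.33 ± 0.28 on the log2 scale (limma adjusted p 0.000433), where the rule called 1.75% of all genes. Its mean normalised exon counts were 545.2 before calving, 879.2 and 670.3 in LE at 1 and 16 wkpp, and 2746 and 1711 in HE. HSF1, the master factor of the heat shock response, had means of 370.8 before calving, 471.4 and 422.5 in LE and 993.8 and 974.3 in HE, and was not called. Of 28 co-chaperones outside the pattern that were tested in each comparison, 1 was called in 1 comparison, LE against HE at 16 wkpp, where the rule called 3.73% of all genes. UNC45A, which helps to fold myosin with HSP90, was at -1.08 ± 0.17 there (limma adjusted p 0.00295). At 1 wkpp it had means of 791.5 in LE and 1390 in HE. The smooth muscle markers were higher in HE at 16 wkpp, and their part was not tested. None of the 9 chaperonin subunits, 14 genes of the unfolded protein response or 10 immediate early genes was called in any of the 6 comparisons. The unfolded protein response list had its largest median differences where HSP90B1 did, at 0.68 before calving against HE at 1 wkpp and 0.70 in LE against HE at 1 wkpp. Its summed level was 12550 to 14840 in HE at 1 wkpp and 16740 to 25950 in the other 12 libraries. DDIT3 of this list went the other way, with means of 280 before calving, 295.1 in LE and 563.1 in HE at 1 wkpp. ATF4 moved less, at 2691, 3074 and 2528.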

How the data were processed

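The study sequenced total RNA, depleted of ribosomal RNA, of 15 adipose biopsies. Per the labels and methods, reads were trimmed with Cutadapt 1.3, aligned with TopHat2 to bosTau8 and counted with HTSeq. Each of 6 deposited tables compares 2 groups of 3. The authors give for each gene, for exons and whole genes, the mean of the 6 normalised counts, and their own fold changes, standard errors and p-values from DESeq2, which were not used. No column held values of other samples (0 columns).

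The planned analysis assumed reads per library, which the tables do not list. The means carry 15 significant digits and each is a sum over 6 libraries of whole reads times a step, 1 over 6 times the size factor. Steps were read from genes with a single read, and reads of all 15 libraries were solved from the 6 tables together. Reads were found for 99.89% of exon and 99.87% of whole gene rows, with relative errors up to 6.4e-15. With each table left out in turn, the reads solved from the remaining 5 gave its means for 98.87 to 99.93% of 1500 genes. Of the genes, 9 in exon and 12 in whole gene counts with means above 100000 were left out, among them fibroblast markers. Libraries could be tied to groups, but not to cows or samples, and are numbered in order of reads.

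Reads were normalised by the median of ratios and tested with limma 3.58.1 (voom weights, R 4.3.3, Python 3.11.15), 2 groups at a time, over genes with a mean of at least 10 reads. Values are means ± SE of 3 libraries a group with differences as first group minus second, and intervals are 95%. Per the methods the RNA came from 3 cows a group, biopsied at each time. The pipeline was tested on simulated data. Alternatives are given in the closing section. Named members are those called, the 2 with most reads of each class, the 3 with the largest difference in each direction of each comparison, and inducible Hsp70s. Others named by their spread, such as DNAJC18 and HSPE1, were chosen after their values were seen. Members and lists were chosen with earlier results of these data known. RefSeq (ARS-UCD2.0) served for names and neighbours only.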

Additional observations from a re-analysis of the deposited data

Results flagged for a closer look

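Reads of the added spike-in RNAs, which enter none of the comparisons, took 2.84 to 19.2% of exon reads in the 6 HE libraries and 0.187 to 1.55% in the other 9, counting the 86 of 92 spike-ins whose reads could be worked out. This was singled out because the lowest HE library, at 2.84%, lies above all libraries before calving, whose highest share was 1.51%. Groups of 3 libraries are too small for a test of a library that stands apart, and no member's change from 1 to 16 wkpp ran in opposite directions in LE and HE with all libraries apart.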

How the results depend on the processing

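The count of members called was 0 in all 6 comparisons and in the test of the change between diets, and 105 of 113 repeats under other settings left it there. These covered scaling to total counts, no filter on low counts, a trend in place of weights, whole gene counts alone, and, chosen after seeing the data, thinning to the smallest library. In 3 of the repeats the 2 HE libraries with fewest reads were left out, so HE is 1 library assumed to vary like the other group, and a count of 0 there says nothing about stability. The limma count moved in 2 comparisons. Before calving against HE at 1 wkpp it was 6 with exon counts alone (17.0% of all genes), 3 at an adjusted p under 0.05 (10.8%), 4 with a weight per library (14.8%) and 4 in the fit of all 15 libraries (10.5%). For LE against HE at 16 wkpp it was 5, 4, 2 and 1 in the same order, against 10.2, 13.1, 4.82 and 4.74% of all genes. Leaving out each library in turn gave 0 to 0 members called in every comparison, but over all genes these fits called 0 to 204 before calving against HE at 1 wkpp, 0 to 72 before calving against LE at 1 wkpp, 0 to 387 in LE against HE at 1 wkpp, 36 to 132 in LE against HE at 16 wkpp and 0 elsewhere, so that little can be read from the members' 0. Of 677 repeats of the named differences, 2 changed sign: DNAJB14 in LE at 1 against 16 wkpp was at 0.0012 without LE_week1 replicate 2 (range over libraries left out -0.6863 to 0.0012), and DNAJC15 in LE against HE at 1 wkpp was at -0.0331 with whole gene counts alone. The cause was not tested. Leaving out 1 library moved 20 of 42 named differences by over 1.5 times. The DNAJC17 difference before calving against HE at 1 wkpp ran from -2.02 to -0.74, the latter in whole gene counts. No paired analysis was possible because the means do not tell which library belongs to which sample number. Libraries of 1 diet at 1 and 16 wkpp may come from the same cows, and the tests treat all libraries as independent. The 2010723 exon reads of the shallowest HE library limit the precision of low members there, and libraries are numbered in order of reads.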
